A study of Mus musculus with 144 samples.

Results

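The messenger RNAs described here encode deadenylases, the enzymes that shorten poly(A) tails, and their complex partners Cnot1 and Pan3. Nocturnin, which is grouped with deadenylases by its sequence, is included. The 9 genes were taken by name, with no threshold on a measured value, although earlier results of these data were known when they were chosen. They are Noct (nocturnin), Parn, Pan2, Pan3, Cnot1, Cnot6, Cnot6l, Cnot7 and Cnot8, and they were 9 of the 51912 genes in the count table. All 9 passed the filter on low counts, a mean of 10 per library, in each comparison and were tested in all of them.

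The study measured liver RNA over the day by QuantSeq, a 3′ mRNA sequencing method that reads 1 tag near the poly(A) tail of each transcript. It comprised 144 libraries in 4 series of 36, with 6 replicates per time point at zeitgeber times (ZT, in hours from the start of the light phase) 2, 6, 10, 14, 18 and 22. Of these, 3 series came from wild-type C57BL/6J male mice and held total RNA, RNA of isolated nuclei and RNA of the polysomal fractions of a sucrose gradient. The remaining series held total liver RNA of Bmal1-/- mice. All mice lived in cycles of 12 h light and 12 h darkness and ate and drank freely. Bmal1 (Arntl) is the partner of Clock in the activating arm of the circadian clock, and the labels do not say which part of the gene the mutant lacks. They also do not say whether replicates are separate animals, so the p-values measure the spread between these libraries.

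A poly(A) tail protects an mRNA from decay and helps its translation, and its removal is usually the first step of decay in the cytoplasm. Pan2 and Pan3 form a complex that trims long tails. In the CCR4-NOT complex Cnot1 is the scaffold, Cnot6 and Cnot6l are alternative catalytic subunits of one nuclease family, and Cnot7 and Cnot8 are alternative catalytic subunits of another. Parn is a separate poly(A)-specific ribonuclease that also matures small nuclear and nucleolar RNAs. Nocturnin is known for a strong daily rhythm in mouse liver. It was first described as a deadenylase and has since been shown to remove a phosphate from NADP(H).

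Depth, as total counts per library, was 5316601 to 9831142 in wild-type total RNA and 1662449 to 6620128 in nuclear RNA. Polysomal libraries held 2578048 to 13068044 counts and Bmal1-/- libraries 4379549 to 14281894. All 8 hepatocyte markers were present in every series. Neat1, a nuclear RNA, averaged 1621 CPM (counts scaled to a library total of 1000000) in nuclear and 167 CPM in total RNA, whereas Malat1 averaged 1566 and 1839 CPM. The 3′ tag of Arntl gave no check of the deletion, since it averaged 11.5 CPM in Bmal1-/- against 6.73 CPM in wild-type total RNA. In 4 libraries Xist exceeded 100 CPM although the labels give male mice. They were wild-type total RNA at ZT22 replicate 5, nuclear RNA at ZT22 replicate 5, polysomal RNA at ZT22 replicate 1 and Bmal1-/- at ZT22 replicate 6. The Y-linked gene Ddx3y was at 0 to 0.38 CPM in the 3 wild-type libraries and at 92.9 CPM in the Bmal1-/- one. The clock gene Npas2 exceeded 5 CPM in 1 ZT14 library of each wild-type series. Within its series the median correlation with the other libraries was lowest in 2 of these Xist libraries (nuclear and polysomal RNA), in wild-type total RNA at ZT2 replicate 4 and in Bmal1-/- at ZT18 replicate 5. The last 2 and the 3 ZT14 libraries high in Npas2 are called the libraries that stand apart below, and the 4 libraries high in Xist were left out separately. In nuclear and polysomal RNA of wild type the fraction is compared with total RNA as a share of counts, so amounts per cell are not measured, and fewer cells of a type and less RNA per cell cannot be told apart in bulk liver.

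Noct lies on chromosome 3, plus strand, from 51224447 to 51251654 (GRCm38). It rose and fell by about 10-fold over the day in wild-type liver. Total RNA held 1.63 ± 1.25 CPM at ZT2 (SD, n = 6; lowest 0.24, median 1.61, highest 3.59) and 2.06 ± 1.98 CPM at ZT6 (0.42, 1.08 and 5.13). At ZT10 it held 15.1 ± 5.75 CPM (4.27, 17.02 and 20.2), and at ZT14 10.6 ± 3.76 CPM (5.15, 10.7 and 15.3). At ZT18 it held 12.0 ± 3.85 CPM (5.99, 12.7 and 16.3), and at ZT22 4.26 ± 4.14 CPM (1.73, 2.91 and 12.6). Every library of ZT14 and ZT18 lay above every library of ZT2 and ZT6, if narrowly at ZT14, and the lowest ZT10 library was the only one of that time below the highest of ZT6. In the order of the means, ZT10, ZT18, ZT14, ZT22, ZT6 and ZT2, the only neighbours that differed by more than the larger SD were ZT14 and ZT22.

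**Figure D1:**
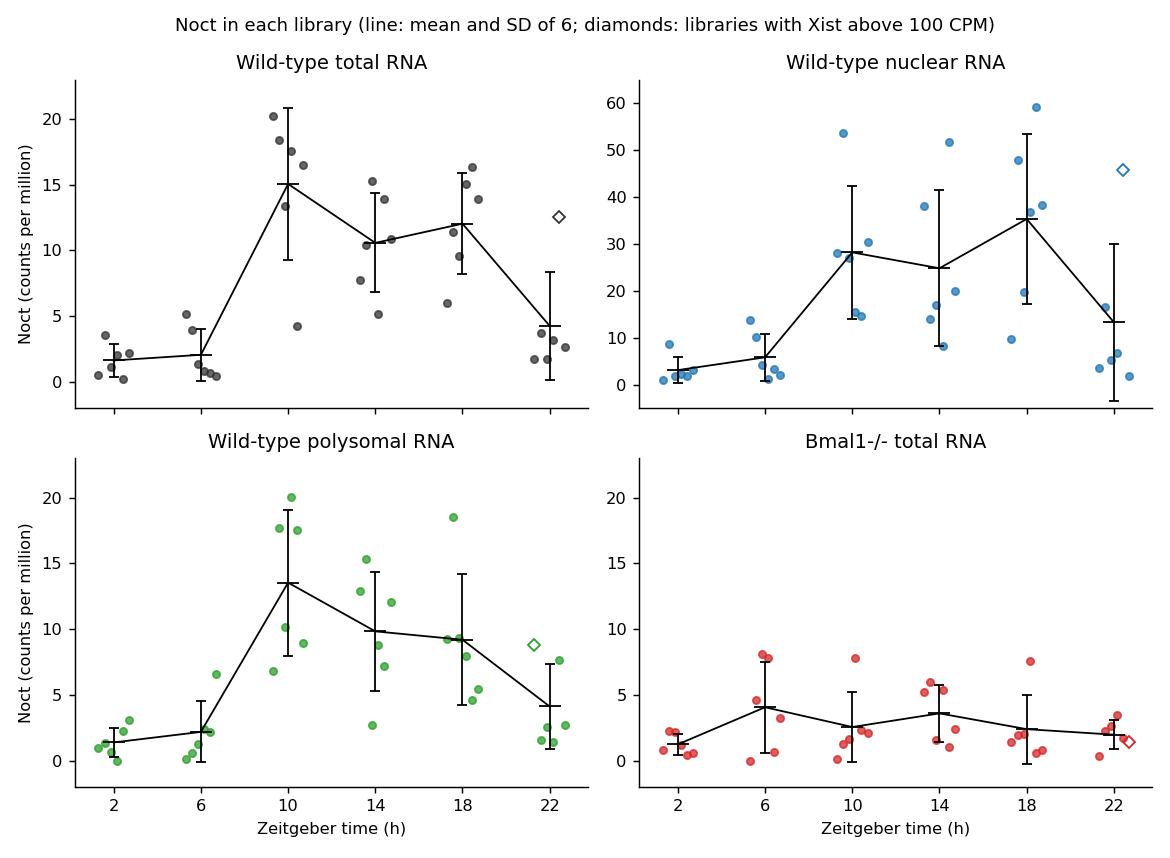
Noct in CPM (y axis) against zeitgeber time in hours (x axis), 1 panel for each series, with 1 point per library, the line joining the means of 6 and bars of 1 SD; the nuclear panel has a larger scale. In the 3 wild-type series the libraries of ZT10, ZT14 and ZT18 sit high and those of ZT2 and ZT6 low, and in Bmal1-/- no library exceeds 8.09 CPM; diamonds mark the libraries with Xist above 100 CPM, of which those of wild type at ZT22 are high for Noct.

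In nuclear RNA Noct was also highest from ZT10 to ZT18 and lowest at ZT2 and ZT6. It held 3.10 ± 2.77 CPM at ZT2 (SD, n = 6; 0.93 to 8.58), 5.83 ± 5.04 at ZT6 (1.18 to 13.8), 28.2 ± 14.2 at ZT10 (14.7 to 53.7), 24.8 ± 16.6 at ZT14 (8.20 to 51.8), 35.3 ± 18.1 at ZT18 (9.78 to 59.1) and 13.3 ± 16.7 at ZT22 (1.77 to 45.8). Every ZT10 library was above every ZT2 and ZT6 library. Polysomal RNA held 1.38 ± 1.13 CPM at ZT2 (0 to 3.09), 2.18 ± 2.32 at ZT6 (0.15 to 6.57), 13.5 ± 5.55 at ZT10 (6.80 to 20.1), 9.83 ± 4.54 at ZT14 (2.72 to 15.3), 9.19 ± 4.98 at ZT18 (4.64 to 18.6) and 4.11 ± 3.24 at ZT22 (1.42 to 8.81). Here too the ZT10 libraries lay above all those of ZT2 and ZT6.

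A cosine of 24 h fitted to each gene (edgeR quasi-likelihood F test over all genes, Benjamini-Hochberg adjustment, threshold 0.05) gave Noct a peak-to-trough ratio of 9.94 in total RNA with a peak at 14.3 h (adjusted p = 3.91e-05). The ratio was 10.05 with a peak at 14.8 h in nuclear RNA (edgeR adjusted p = 0.000411) and 9.87 with a peak at 14.3 h in polysomal RNA (edgeR adjusted p = 0.00017). Noct had a larger fitted ratio than 99.1% of the 2260 genes with a rhythm in total RNA, whose median ratio was 1.61. Between fractions the rhythm of Noct was not found to differ, with edgeR adjusted p-values of 1 for nuclear and for polysomal against total RNA. No gene passed that test in either fraction with edgeR (0 of 11864 and 0 of 11556; unadjusted p under 0.05 in 244 and 673 genes), and DESeq2 called 0 and 9 genes. None of the 9 members had an unadjusted p under 0.05 there with edgeR, and DESeq2 called 0 of 9 in both. Without the 4 libraries high in Xist the log2 peak-to-trough value of Noct was 3.61 in total, 3.63 in nuclear and 3.44 in polysomal RNA, against 3.31, 3.33 and 3.30 with them.

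In Bmal1-/- liver Noct was low at each of the 6 times. It held 1.23 ± 0.81 CPM at ZT2 (SD, n = 6; 0.40 to 2.25), 4.06 ± 3.45 at ZT6 (0 to 8.09), 2.55 ± 2.69 at ZT10 (0.15 to 7.82), 3.59 ± 2.18 at ZT14 (1.04 to 5.97), 2.39 ± 2.63 at ZT18 (0.54 to 7.61) and 1.97 ± 1.08 at ZT22 (0.35 to 3.48). The ranges of all 6 times overlapped, and no neighbours in the order of the means differed by more than the larger SD. The fitted peak-to-trough ratio was 1.99 (edgeR unadjusted p = 0.26, adjusted p = 1). Noct averaged 21.2 counts per library in this series, against 59.9 in wild-type total RNA, so the fitted rhythm is less precise here.

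Averaged over the 6 times, Noct fell in Bmal1-/- by 1.25 on the log2 scale (SE 0.25, edgeR adjusted p = 4.29e-05), from 7.60 ± 6.31 CPM to 2.63 ± 2.36 CPM (SD, n = 36). Over all genes, 44.1% were called in this comparison, 22.4% higher and 21.7% lower. The fall passed the threshold at ZT10, by 2.66 (SE 0.60, edgeR adjusted p = 0.000775; 8.05% of genes were lower at this time), and at ZT18, by 2.52 (SE 0.60, edgeR adjusted p = 0.00227; 5.91% lower). At ZT14 the difference was -1.68 (SE 0.58, edgeR adjusted p = 0.052), and it passed without the libraries that stand apart (adjusted p = 0.025) and without the libraries high in Xist (adjusted p = 0.0428). At the times when wild-type Noct was low, the log2 differences were -0.45 at ZT2 (edgeR adjusted p = 0.75), 0.92 at ZT6 (adjusted p = 0.394) and -1.12 at ZT22 (adjusted p = 0.307). Over all genes 9.76% were called at ZT2, 10.1% at ZT6, 9.73% at ZT14 and 6.97% at ZT22, with 16.4% at ZT10 and 12.7% at ZT18. The ZT22 difference of Noct was -0.33 without the libraries high in Xist. The libraries of the 2 genotypes overlapped at all 6 times, and at ZT10 it was 1 low wild-type library of 4.27 CPM and 1 high Bmal1-/- library of 7.82 CPM that overlapped. The ZT10 difference was -4.03 in replicates 1 to 3 and -1.84 in replicates 4 to 6 (adjusted p = 0.18), where the ZT18 difference had an adjusted p of 0.0514.

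The rhythm of Noct differed between the genotypes by 2.86 on the log2 scale, a peak-to-trough value of the difference (edgeR adjusted p = 0.0452; 5.18% of genes were called). That call was near the threshold. It was lost with genes of a mean of at least 1 count (adjusted p = 0.0578) and in each group of 3 replicates, where the adjusted p was 0.243 for replicates 1 to 3 and 0.3 for replicates 4 to 6. Markers of other cells also differed between the genotypes. Of those tested, 4 of 5 Kupffer cell, 4 of 5 erythroid and 2 of 3 adipocyte markers were called lower in Bmal1-/- (edgeR). For cholangiocytes 2 of 2 and for pancreatic acinar cells 1 of 1 were called higher. Other lists went both ways: of 5 sinusoidal endothelial markers 1 was higher and 3 lower. Of 4 stellate cell and fibroblast markers 2 were higher and 1 lower, and of 8 hepatocyte markers 2 were higher and 3 lower. The summed level of 5 cholangiocyte markers had a median of 25.7 CPM in wild-type total RNA (16.2 to 66.6) and 73.5 CPM in Bmal1-/- (45.8 to 136), and none of the 5 was absent from a whole series. The medians of the other sums, wild type first, were 185 and 168 CPM for Kupffer cells (86.7 to 588 and 65.3 to 374), 2585 and 1464 CPM for erythroid cells (546 to 13133 and 27.7 to 5469), 119.9 and 109 CPM for sinusoidal endothelium (90.8 to 157 and 71.9 to 165) and 34.3 and 102.4 CPM for acinar cells (15.01 to 94.4 and 15.6 to 185). For hepatocytes they were 69540 and 55417 CPM (30878 to 90973 and 28215 to 115771). Stellate cells and fibroblasts had 251 and 317 CPM (173 to 346 and 239 to 415.5), and adipocytes 5180 and 4499 CPM (1617 to 10411 and 56.0 to 9893). Of the 5 acinar markers 4 were at 0 in every wild-type library and 1 in every Bmal1-/- library. The part of these cells in the Noct result was not tested.

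The promoters of the 3 genes called in gene level or rhythm between the genotypes, Noct, Parn and Cnot6l, are shown because the mutant lacks a DNA-binding activator. Each window runs from 250 bases before to 50 bases after an annotated start, with sequence from RefSeq (GRCm38.p6). Of the 9 genes, 7 had entries, with 12 promoters in all. Cnot7 had none, nor did Cnot1, which was called between the genotypes in site usage alone. The windows are chr3:51224197-51224496 on the plus strand for Noct, chr16:13668121-13668420 on the minus strand for Parn and chr5:96161498-96161797 on the minus strand for the third of 3 Cnot6l starts. Of the Cnot6l windows the third alone held a match to a motif searched for, and the others are not shown. Capitals mark matches to TGACG, and to CACGTT, which stands on the other strand and so reads AACGTG here.
Noct: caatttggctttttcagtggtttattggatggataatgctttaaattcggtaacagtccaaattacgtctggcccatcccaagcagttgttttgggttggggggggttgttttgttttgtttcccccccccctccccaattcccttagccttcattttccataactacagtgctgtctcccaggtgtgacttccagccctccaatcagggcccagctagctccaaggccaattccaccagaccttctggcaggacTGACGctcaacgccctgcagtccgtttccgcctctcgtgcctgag
Parn: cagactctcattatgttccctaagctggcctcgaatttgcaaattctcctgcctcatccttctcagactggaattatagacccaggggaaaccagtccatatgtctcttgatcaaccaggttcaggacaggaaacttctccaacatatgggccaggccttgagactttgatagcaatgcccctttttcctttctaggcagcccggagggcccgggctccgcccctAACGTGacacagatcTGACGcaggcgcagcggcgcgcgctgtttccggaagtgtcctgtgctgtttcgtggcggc
Cnot6l: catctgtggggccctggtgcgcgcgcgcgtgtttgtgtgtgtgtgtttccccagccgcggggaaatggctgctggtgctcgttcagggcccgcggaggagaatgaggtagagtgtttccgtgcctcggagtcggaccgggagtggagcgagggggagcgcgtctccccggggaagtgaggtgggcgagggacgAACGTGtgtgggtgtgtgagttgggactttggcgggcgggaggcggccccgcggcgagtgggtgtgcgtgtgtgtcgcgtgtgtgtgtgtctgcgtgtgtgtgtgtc

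Both strands were searched for 4 short motifs, and none of their matches in the windows shown above overlaps another. CACGTG, the E-box bound by Clock and Bmal1, was in none of the 12 windows of the deadenylase genes, and in 7.15% of all 32851 promoters of the same length. At that share 12 windows, some of which overlap one another, are too few for the absence to set these genes apart. The variant CACGTT was in 1 window each of Parn and Cnot6l, and in 4.68% of all promoters. The sequence AGGTCA, the core of the elements bound by Ror and Rev-erb receptors, was in 1 window of Cnot8, and in 16.3% of all promoters. Matches to TGACG, the core of the cyclic AMP response element, were in windows of Noct, Parn, Pan2, Cnot6 and Cnot8, and in 20.8% of all promoters. A match is a string of letters and does not show binding, and the absence of one says nothing of sites outside the window.

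The deposited table of polyadenylation sites held 4 called sites in Noct. The last, at 51251579 to 51251636 on chromosome 3, stands 18 bases before the annotated gene end, and a second one at 51251466 to 51251487 is close to it. A further site at 51228122 to 51228143 stands 3696 bases after the gene start, which is far upstream of the end, and is not in the authors' filtered list of sites. The tables do not show whether it is a transcript end. Over all counts at the 4 sites, the near-start site took 52.7% in wild-type total RNA, 91.8% in nuclear RNA, 11.9% in polysomal RNA and 36.8% in Bmal1-/- total RNA. The last site took 34.9%, 7.2%, 73.6% and 49.2%. The nuclear signal of Noct was thus mostly at the near-start site and the polysomal signal mostly at the last one. The counts of the 4 sites came to 107% of the gene count in total RNA and to 169% in nuclear RNA, so the gene table does not hold all reads of the near-start site. They came to 67.4% in polysomal and 69.7% in Bmal1-/- RNA, below the gene count.

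**Figure D2:**
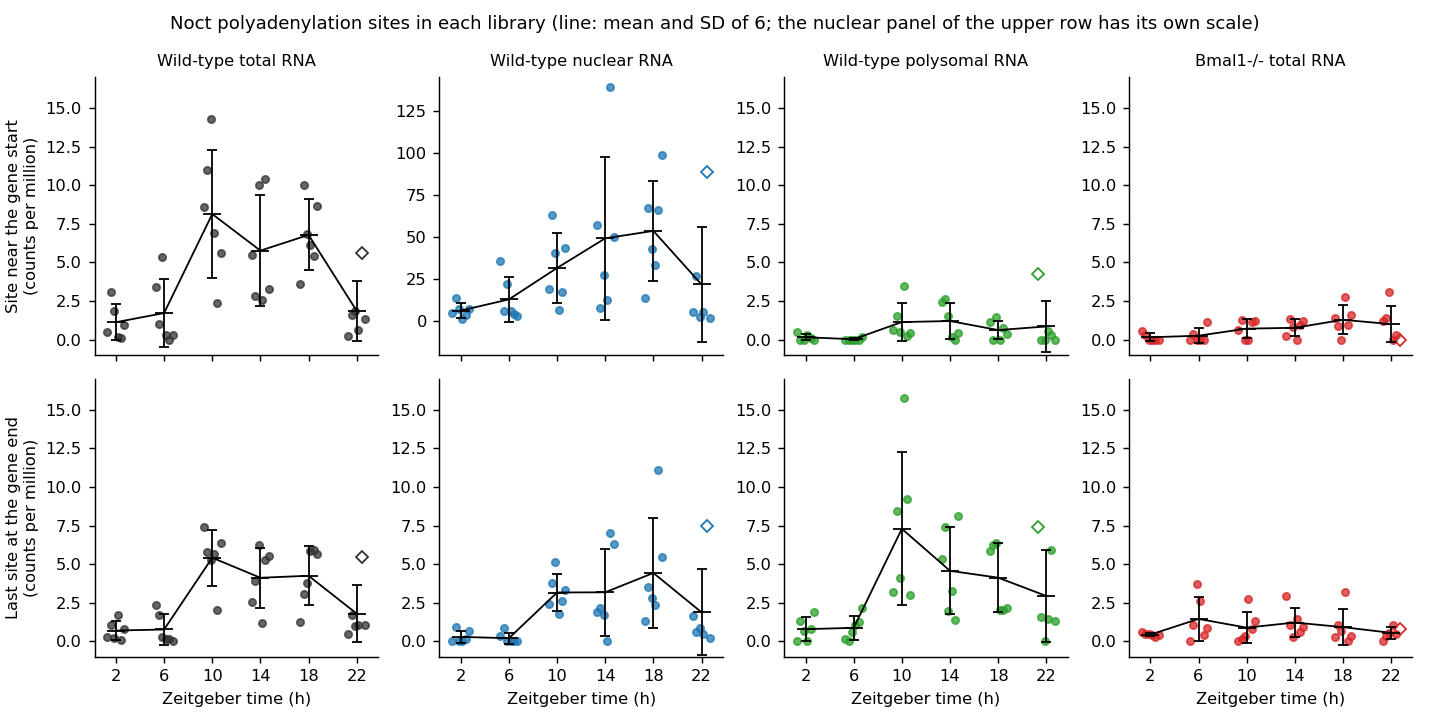
CPM (y axis) at the near-start site (upper row) and the last site (lower row) of Noct against zeitgeber time in hours (x axis) in the 4 series, with 1 point per library, the line joining the means of 6, bars of 1 SD and diamonds for the libraries with Xist above 100 CPM. The near-start site is high in nuclei, where its panel has a larger scale, and close to 0 in polysomes, while the last site reaches similar levels in total and polysomal RNA.

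At the near-start site nuclear RNA held 6.38 ± 4.30 CPM at ZT2 (SD, n = 6; 1.63 to 13.9) and 53.7 ± 29.8 CPM at ZT18 (14.02 to 98.7), ranges that did not overlap. Total RNA held 1.13 ± 1.17 CPM at ZT2 (0.12 to 3.11) and 8.13 ± 4.17 CPM at ZT10 (2.39 to 14.3), which overlapped in part. Polysomal RNA held at most 1.202 ± 1.17 CPM, at ZT14, and Bmal1-/- at most 1.28 ± 0.93 CPM, at ZT18. At the last site total RNA held 0.70 ± 0.61 CPM at ZT2 (0.12 to 1.69) and 5.42 ± 1.83 CPM at ZT10 (2.01 to 7.40), with no overlap. Polysomal RNA there held 0.79 ± 0.76 CPM at ZT2 (0 to 1.93) and 7.29 ± 4.95 CPM at ZT10 (2.98 to 15.8), again with no overlap. Bmal1-/- held 0.43 ± 0.11 CPM at ZT2 (0.27 to 0.59) and 0.89 ± 1.02 CPM at ZT10 (0 to 2.71).

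Both sites of Noct were rhythmic where they were abundant. The near-start site had a peak-to-trough ratio of 7.83 in total RNA with a peak at 13.9 h (edgeR adjusted p = 0.00144) and of 6.95 in nuclear RNA with a peak at 14.9 h (edgeR adjusted p = 0.00611). The last site had a ratio of 8.20 in total RNA with a peak at 14.4 h (edgeR adjusted p = 0.000807) and of 7.80 in polysomal RNA with a peak at 14.6 h (edgeR adjusted p = 0.0304). Over all sites, 11.5% were rhythmic in total, 4.37% in nuclear and 3.28% in polysomal RNA. In groups of 3 replicates the calls of the last site were lost in total RNA (replicates 4 to 6, adjusted p = 0.0891) and in polysomal RNA (0.268 and 0.215), and that of the near-start site in nuclear RNA (replicates 1 to 3, 0.331). Against total RNA, the near-start site rose in nuclear RNA by 2.31 on the log2 scale (SE 0.29, edgeR adjusted p = 9.87e-11) and fell in polysomal RNA by 3.26 (SE 0.38, edgeR adjusted p = 1.2e-11). The last site fell in nuclear RNA by 1.18 (SE 0.30, edgeR adjusted p = 0.000268), and its polysomal value was 0.03 (SE 0.28, edgeR adjusted p = 0.918). The nuclear call of the last site was lost in replicates 4 to 6 (adjusted p = 0.0705). Of all sites 87.1% were called in nuclei and 75.5% in polysomes. The medians over all sites in these comparisons were -0.25 for nuclear and -0.16 for polysomal RNA, so the site values are read against those; with median-ratio size factors the medians were -0.07 and -0.32, and the polysomal value of the last site was -0.13. In Bmal1-/- both sites fell, the near-start site by 2.66 (SE 0.36, edgeR adjusted p = 7.79e-09) and the last site by 1.42 (SE 0.29, edgeR adjusted p = 7.2e-05); 32.7% of sites were called there, and the median over all sites was -0.0041. The fall of the last site had an adjusted p of 0.153 in replicates 4 to 6.

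Of the other 8 genes, Cnot6l alone was called rhythmic in wild-type total RNA. Cnot6l, a catalytic subunit of CCR4-NOT, lies on chromosome 5, minus strand, from 96070333 to 96164198. It held 53.0 ± 6.3 CPM at ZT2 (SD, n = 6), 60.3 ± 5.7 at ZT6, 57.3 ± 7.9 at ZT10, 49.6 ± 7.5 at ZT14, 44.4 ± 3.4 at ZT18 and 49.99 ± 5.2 at ZT22. The 6 libraries of ZT6, the lowest at 51.6 CPM, all lay above those of ZT18, the highest at 47.9 CPM. The fitted ratio was 1.26 with a peak at 6.0 h (edgeR adjusted p = 0.00849), larger than that of 3.5% of the rhythmic genes. The rhythm differed in Bmal1-/- by 0.44 on the log2 scale (edgeR adjusted p = 0.0215), where the fitted ratio was 1.06 (edgeR adjusted p = 1). Summed over the filtered sites, this difference had an adjusted p of 0.0985. Neither call held in groups of 3 replicates. The rhythm had an adjusted p of 0.272 in replicates 1 to 3 and 0.0858 in replicates 4 to 6, and the difference had 0.416 and 0.18.

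**Figure D3:**
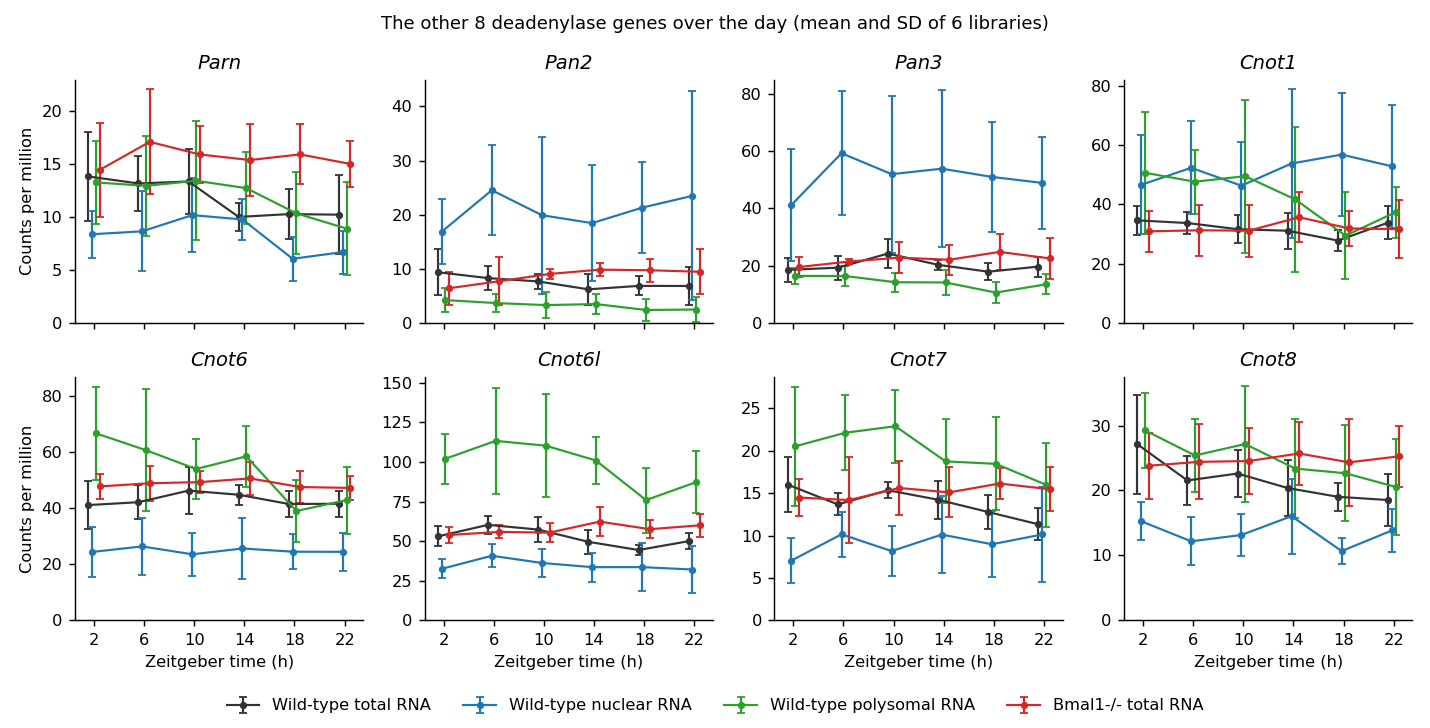
CPM (y axis) of Parn, Pan2, Pan3, Cnot1, Cnot6, Cnot6l, Cnot7 and Cnot8 against zeitgeber time in hours (x axis), as means of 6 libraries with bars of 1 SD, 1 line for each series. Most lines are near level over the day and stand apart by series, such as the polysomal line of Cnot6l above and the nuclear lines of Pan2 and Pan3 above the others.

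Counted together, 2 of the 9 genes were rhythmic in total RNA (18.9% of all genes), 1 in nuclear RNA (5.99%) and 1 in polysomal RNA (7.9%), and the call in nuclei and polysomes was Noct in both. In Bmal1-/- none of the 9 was called by edgeR or by DESeq2, none had an unadjusted p under 0.05, and 1 of 12126 genes was called (0.00825%). Parn had fitted ratios of 1.39 in total RNA (edgeR adjusted p = 0.132) and 1.52 in nuclear RNA (adjusted p = 0.255). Cnot1, the scaffold, had a ratio of 1.19 in total RNA (edgeR adjusted p = 0.146). The fitted ratios of Pan2, Pan3, Cnot6, Cnot7 and Cnot8 in total RNA lay between 1.08 and 1.40, with adjusted p-values from 0.218 to 0.593, so changes of that size were not separated from the spread between libraries.

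Parn rose in Bmal1-/-. It lies on chromosome 16, minus strand, from 13537964 to 13668198. Its level over the 36 libraries was 15.6 ± 3.40 CPM in Bmal1-/- (SD; lowest 9.36, median 15.4, highest 22.03) and 11.8 ± 3.28 CPM in wild-type total RNA (4.48, 11.6 and 19.6). Its Bmal1-/- mean exceeded the wild-type mean at 6 of 6 times, although the libraries overlapped at each. The log2 difference was 0.33 (SE 0.08, edgeR adjusted p = 0.000782), with an adjusted p of 0.077 in replicates 1 to 3 alone. The site 135 bases before its annotated end, at 13538099 to 13538177, rose by 0.45 (SE 0.16, edgeR adjusted p = 0.0263), with an adjusted p of 0.582 in replicates 1 to 3.

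With Noct and Parn, 2 of the 9 genes were called in level between the genotypes, against 44.1% of all genes. The 7 others differed by -0.10 (Cnot1) to 0.12 (Pan2) on the log2 scale, with SEs from 0.04 to 0.14. Cnot6 was 43.0 ± 6.20 CPM in wild type and 48.6 ± 4.92 CPM in Bmal1-/- (SD, n = 36), a log2 difference of 0.09 (SE 0.04, edgeR adjusted p = 0.0729). Its Bmal1-/- mean was above that of wild type at 6 of 6 times, and it passed in replicates 4 to 6 (0.18, adjusted p = 0.00919). In other subsets Cnot8 passed without the libraries that stand apart (0.16, adjusted p = 0.0417), Cnot6l in replicates 1 to 3 (0.15, 0.021) and Cnot1 in replicates 4 to 6 (-0.28, 0.038). The differences of Cnot6 and Cnot1 changed sign in replicates 1 to 3, and that of Cnot6l did so in replicates 4 to 6.

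**Figure D4:**
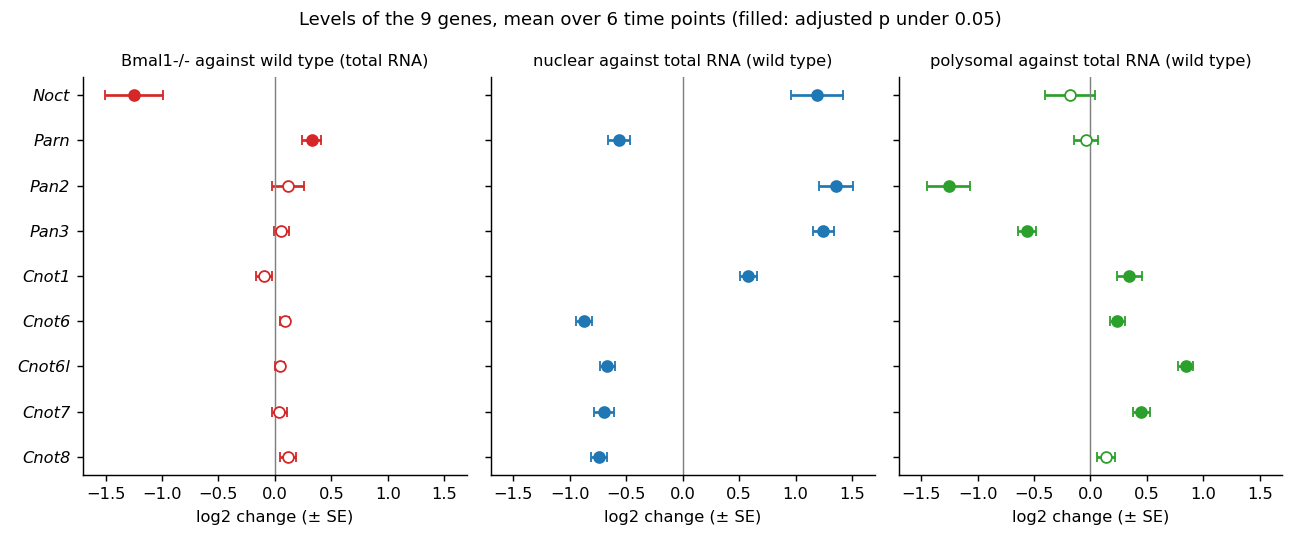
Log2 differences of level (x axis, points with bars of 1 SE) of the 9 genes (y axis) in Bmal1-/- against wild-type total RNA, and in nuclear and polysomal against total RNA of wild type; filled points have an edgeR adjusted p under 0.05. Noct stands apart on the left of the first panel, Pan2, Pan3, Noct and Cnot1 lie on the right of the second, and Pan2 and Pan3 lie on the left of the third.

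In nuclei all 9 genes were called against total RNA, 4 higher and 5 lower, a split near that of all genes, of which 83.8% were called (41.6% higher and 42.1% lower). Pan2, the nuclease of its complex, rose by 1.35 on the log2 scale (SE 0.15), from 7.52 ± 2.84 CPM to 20.7 ± 11.5 CPM (SD, n = 36). The called sites of Pan2, all near its end, held 76.5% of its gene count in total but 52.1% in nuclear RNA. Its main site, 128321240 to 128321267, averaged 4.40 ± 1.81 and 5.78 ± 3.16 CPM, and that at 128321336 to 128321347 averaged 0.38 ± 0.35 and 2.93 ± 2.71 CPM. Pan3, the partner of Pan2, rose by 1.25 (SE 0.09), from 19.98 ± 4.05 to 51.0 ± 21.4 CPM. Noct rose by 1.19 (SE 0.23, edgeR adjusted p = 4.22e-06) and Cnot1 by 0.58 (SE 0.07). The value of Noct depends on which sites are counted: summed over the authors' filtered sites, which leave out the near-start site, it was -0.71 (SE 0.30, edgeR adjusted p = 0.0255). Sites within Pan3 and Cnot1 differed too. Near the end of Pan3 the site at 147548378 to 147548431 averaged 6.02 ± 1.69 CPM in total and 3.23 ± 1.85 CPM in nuclear RNA. The site at 147548451 to 147548502 averaged 4.16 ± 0.96 and 4.68 ± 2.41 CPM. Upstream, the site at 147531653 to 147531674 averaged 1.95 ± 0.81 and 14.2 ± 7.93 CPM. The main Cnot1 site, 95720141 to 95720330, averaged 15.6 ± 4.19 and 13.1 ± 4.99 CPM.

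The catalytic subunits of CCR4-NOT were all lower in nuclear than in total RNA. Cnot6 fell by 0.87 (SE 0.07), Cnot8 by 0.74 (SE 0.07), Cnot7 by 0.70 (SE 0.09) and Cnot6l by 0.67 (SE 0.06), and Parn fell by 0.56 (SE 0.10). Each of the 5 had a lower nuclear mean at all 6 times, with edgeR adjusted p-values of 4e-07 or less. The libraries overlapped at most times; for Cnot8 they did not overlap at 3 of 6 times. Nuclear libraries are the shallowest, with mean counts per library of 35.0 for Parn and 36.8 for Cnot7 against 91.0 and 108.1 in total RNA.

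In polysomes 6 of the 9 were called, 4 higher and 2 lower, where 76% of all genes were called (38.8% higher and 37.2% lower). Cnot6l rose by 0.84 on the log2 scale (SE 0.07, edgeR adjusted p = 2.07e-18), from 52.4 ± 7.79 to 98.3 ± 25.8 CPM (SD, n = 36), and its libraries did not overlap those of total RNA at 5 of 6 times. Cnot7 rose by 0.45 (SE 0.07), from 13.9 ± 2.48 to 19.8 ± 5.42 CPM. Cnot1 rose by 0.34 (SE 0.11, edgeR adjusted p = 0.00471) and Cnot6 by 0.24 (SE 0.07, edgeR adjusted p = 0.00144). The call of Cnot6 was lost with median-ratio size factors, with DESeq2, in replicates 1 to 3 and with filtered sites summed (log2 difference 0.10, adjusted p = 0.174), and that of Cnot1 in replicates 4 to 6.

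By gene counts Pan2 and Pan3, the 2 genes most raised in nuclei, were the 2 lower in polysomes. Pan2 fell by 1.26 (SE 0.19, edgeR adjusted p = 2.75e-08), to 3.25 ± 2.07 CPM (SD, n = 36), with a lower mean at 6 of 6 times. Pan3 fell by 0.56 (SE 0.08, edgeR adjusted p = 1.45e-09), to 14.2 ± 3.84 CPM, also lower at 6 of 6 times. The sites of Pan3 did not all move alike. Near its end the site at 147548451 to 147548502 averaged 4.16 ± 0.96 CPM in total and 5.10 ± 2.04 CPM in polysomal RNA. That at 147548378 to 147548431 averaged 6.02 ± 1.69 and 3.79 ± 1.89 CPM. Upstream, the site at 147464562 to 147464586 averaged 3.17 ± 1.27 and 0.24 ± 0.38 CPM. The nuclear and polysomal comparisons share the 36 total RNA libraries of wild type, so the values stand side by side and are not independent. Noct (-0.18, SE 0.22, edgeR adjusted p = 0.456), Parn (-0.04, SE 0.11, adjusted p = 0.719) and Cnot8 (0.14, SE 0.08, adjusted p = 0.112) were not called, although Cnot8 passed without the libraries that stand apart (0.17, adjusted p = 0.0478). Erythroid transcripts were higher in the polysomal libraries, with a median summed level of 8852 CPM against 2585 CPM in total RNA for 5 genes, and their part in these values was not tested.

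Usage, the share of a site in the counts of its gene's filtered sites, was tested where a gene had a mean of 50 counts and at least 2 sites each holding 5% of them, which Noct and Pan2 did not meet. In the 7 other genes 20 of 23 sites were called in nuclei (78.7% of all sites), 10 of 21 in polysomes (70.5%) and 3 of 22 in Bmal1-/- (9.02%). The count was thus close to the share of all sites in nuclei and Bmal1-/- and below it in polysomes. In Cnot6l the site at 96070330 to 96070399 lies at the annotated end of the gene and that at 96076806 to 96076855 lies 6473 bases before it. The end site took 30.9% ± 6.0 in total RNA (SD, n = 36), 74.0% ± 11.6 in nuclei and 22.6% ± 7.1 in polysomes. The upstream site took 51.9% ± 4.6, 19.0% ± 10.2 and 64.3% ± 7.2. The usage of the end site rose in nuclei by 1.26 on the log2 scale (SE 0.06, edgeR adjusted p = 7.2e-28) and fell in polysomes by 0.46 (SE 0.09, edgeR adjusted p = 1.58e-05).

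**Figure D5:**
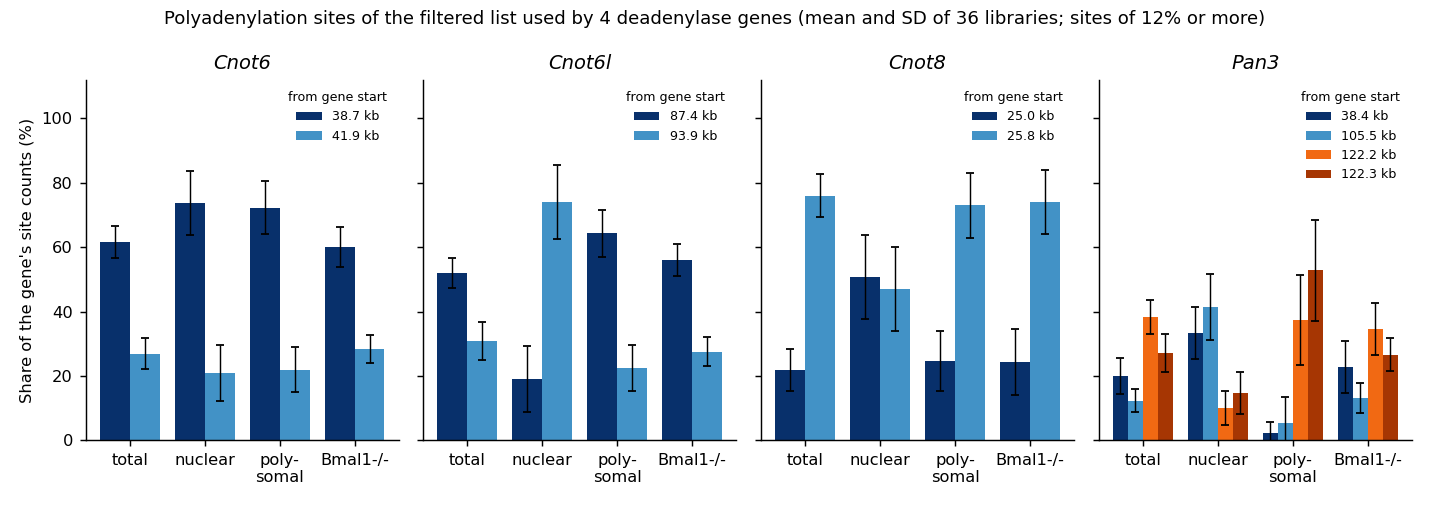
Share of a gene's filtered site counts in percent (y axis, means of 36 libraries with bars of 1 SD) of the main sites of Cnot6, Cnot6l, Cnot8 and Pan3 in the 4 series (x axis), with sites named by their distance from the gene start in kb. The 2 bars of Cnot6l change order in nuclei, those of Cnot8 come level there, and the 2 upstream sites of Pan3 are the tallest in nuclei and the shortest in polysomes.

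In the related gene Cnot6 the site at the gene end moved the other way from that of Cnot6l in nuclei and the same way in polysomes. On chromosome 11 its site at 49674709 to 49674869, 3212 bases before the gene end, took 61.6% ± 4.9 in total RNA, 73.7% ± 9.8 in nuclei and 72.3% ± 8.2 in polysomes (SD, n = 36). Its usage rose in both fractions, by 0.26 (SE 0.04) and 0.22 (SE 0.04), and that of the site at the gene end, 49671497 to 49671594, fell in both, by 0.45 (SE 0.10) and 0.29 (SE 0.08). The latter calls were lost in replicates 1 to 3 for nuclei (adjusted p = 0.0511) and in replicates 4 to 6 for polysomes (0.0596). In Cnot8, also on chromosome 11, the site at 58117798 to 58117842, 755 bases before the gene end, took 21.8% ± 6.4 in total RNA and 50.8% ± 13.0 in nuclei. Its usage rose there by 1.204 (SE 0.09, edgeR adjusted p = 5.35e-19), while the site at the gene end, 58118439 to 58118601, fell by 0.70 (SE 0.07).

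Pan3 on chromosome 5 had called sites far upstream of its end. The site at 147464562 to 147464586, 38378 bases after the gene start, took 19.98% ± 5.5 in total RNA, 33.4% ± 8.2 in nuclei and 2.3% ± 3.3 in polysomes (SD, n = 36). The site at 147531653 to 147531674 took 12.4% ± 3.7, 41.5% ± 10.4 and 5.4% ± 8.2. The usage of both rose in nuclei, by 0.73 (SE 0.09) and 1.76 (SE 0.09), and fell in polysomes, by 3.25 (SE 0.27) and 1.74 (SE 0.29). At the gene end the site at 147548451 to 147548502 had the opposite values, falling by 0.93 (SE 0.11) in nuclei and rising by 0.93 (SE 0.09) in polysomes. The upstream sites were thus abundant in nuclei and scarce in polysomes, as was the near-start site of Noct.

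Cnot1 on chromosome 8 had some internal sites of the same kind. The site at 95776962 to 95776977 took 6.5% ± 3.9 in total RNA, 22.5% ± 10.7 in nuclei and 0.4% ± 0.9 in polysomes (SD, n = 36), and its usage rose in nuclei by 1.82 (SE 0.19). The site at 95804110 to 95804150, which is not in the filtered list, rose in level in nuclei by 2.78 (SE 0.15). Other internal sites were not scarce in polysomes. That at 95769751 to 95769778 averaged 2.92 ± 1.53 CPM in total, 6.02 ± 3.17 in nuclear and 6.66 ± 4.75 in polysomal RNA. Its neighbour at 95769571 to 95769605, outside the filtered list, averaged 1.97 ± 0.93, 3.41 ± 2.72 and 4.29 ± 3.62 CPM. In Bmal1-/- the main site of Cnot1, 95720141 to 95720330, took 69.0% ± 11.2 against 78.6% ± 9.9 in wild type, and its usage fell by 0.19 (SE 0.05, edgeR adjusted p = 0.0124). The usage of the site at 95769751 to 95769778 rose by 0.65 (SE 0.18, edgeR adjusted p = 0.0111). The third call in Bmal1-/- was the upstream site of Cnot6l, which rose by 0.11 (SE 0.03, edgeR adjusted p = 0.0165). None of the 3 held in replicates 1 to 3 (adjusted p = 0.0588 to 0.106), and in replicates 4 to 6 the main Cnot1 site (0.0507) and the Cnot6l site (0.216) did not pass. Cnot1 overlaps Setd6, on the opposite strand, and Cnot7 overlaps Vps37a; the counting is not known to use strand in the gene table, so their gene counts are uncertain.

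The other genes of the pathway were read by lists. Of 17 recruiters of CCR4-NOT or PAN2-PAN3, 7 were rhythmic in total RNA (18.9% of all genes), 1 in nuclear RNA (5.99%) and 2 in polysomal RNA (7.9%), with a median in total RNA log2 peak-to-trough value of 0.33 against 0.32 over all genes. They included Btg1, which peaked at 23.7 h with a log2 value of 1.31, Tob2 (1.04, 11.6 h) and Zfp36l1 (0.79, 22.1 h). Of 6 tail-extending transferases 2 were rhythmic in total RNA, Zcchc11 (0.84, 9.1 h) and Papd7 (0.54, 16.2 h). The other lists had 1 call each in total RNA: Pde12 of 3 other deadenylases tested, Tnks1bp1 of 7 other CCR4-NOT subunits, Larp1 of 9 poly(A)-binding factors, Dcps of 16 decapping factors and Exosc6 of 16 exosome and SKI factors.

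Between the genotypes 8 of the 17 recruiters were called in level, 6 higher and 2 lower, where 44.1% of all genes were called (22.4% higher and 21.7% lower), with Btg1 up by 0.93 (SE 0.11) and Zfp36 down by 0.51 (SE 0.13). Of the 9 poly(A)-binding factors 5 were called, 3 higher and 2 lower, among them Pabpc1 at 0.33 (SE 0.08). The counts were 1 of 3 for the other deadenylases, 3 of 7 for the CCR4-NOT subunits, 7 of 16 for decapping, 4 of 16 for exosome and SKI and 3 of 6 for tail-extending transferases. The medians of the 7 lists lay between -0.11 and 0.14, beside 0.01 over all genes. The rhythm differed between the genotypes in 5.18% of all genes. It did so for 4 of 17 recruiters, among them Btg1 (log2 value of the difference 1.17), Zfp36l1 (0.74) and Tnrc6b (0.52), for Zcchc11 of 6 transferases (1.02), for Larp1 of 9 poly(A)-binding factors (0.76) and for Pde12 of 3 other deadenylases (0.78), and these were the calls of edgeR in the 7 lists.

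Likeness of pattern was measured as the correlation of log2 CPM means over 18 points, 6 times in each of the 3 wild-type series, with the mean of each series subtracted. Among 9787 genes compared, those most like Noct were Por (r = 0.96), Cyp7a1 (0.96), St3gal5 (0.96), Cyp2a5 (0.95) and Usp2 (0.95). Por encodes the electron donor of microsomal P450 enzymes, and Cyp7a1 encodes the rate-limiting enzyme of bile acid synthesis. They peaked in total RNA between 13.6 and 14.9 h, with peak-to-trough ratios from 3.08 (Cyp2a5) to 25.3 (Usp2). The gene most like Cnot6l was Rassf3 (r = 0.95), with a peak at 7.3 h. These correlations are the highest among the 9787 genes compared and are given as a description.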

How the data were processed

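QuantSeq 3′ libraries of mouse liver, 36 for each of 4 series, were analysed. The deposited gene and site tables hold raw counts of the authors. Alignment with STAR 2.4.2a and the builds mm10 and GRCm38.p5 are named per the submitters' processing notes; the counting tool, annotation and site filter are not given in the sources used here. All columns had a sample. No replicate pair of the same group held identical counts.

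Genes averaging at least 10 counts in a library were tested with edgeR 4.0.16 (R 4.3.3; TMM scaling, robust quasi-likelihood F test, Benjamini-Hochberg adjustment over all genes, threshold 0.05). Rhythm was the cosine and sine of 24 h within a series; its log2 value is from peak to trough. Levels were contrasts of the means of the 6 time-point means, in a fit of 12 groups. Usage had the log of the gene's site sum plus 0.5 as offset. Sites were given to genes by strand and position from RefSeq GRCm38.p6, up to 1000 bases past the gene end; primary coordinates equal those of mm10. CPM values are counts scaled to a library total of 1000000 in the table used, with no further scaling. The fits were tested on simulated data.

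Named genes are the 9 members, the 3 most changed called genes of each list, and the 5 most similar patterns for Noct and 1 for Cnot6l. Members and lists were chosen with earlier results of these data known. Levels and rhythms of single sites, and the libraries left out, were added after seeing the data. Alternatives included DESeq2 1.42.0, median-ratio size factors, other filters and subsets of replicates.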

Additional observations from a re-analysis of the deposited data

Results flagged for a closer look

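Each group of 6 libraries was searched for a library far from the rest, by Dixon's test at its 95% critical value. Of 216 groups (9 genes in 24 groups) 21 held one, where chance alone gives about 1 in 20. For Noct, 7 libraries were high. They were wild-type total RNA at ZT22 replicate 5 (12.6 CPM, next 3.70 CPM), nuclear RNA at ZT22 replicate 5 (45.8, next 16.7) and at ZT2 replicate 2 (8.58, next 3.10), polysomal RNA at ZT6 replicate 6 (6.57, next 2.37) and at ZT18 replicate 2 (18.6, next 9.34), and Bmal1-/- at ZT10 replicate 4 (7.82, next 2.32) and at ZT18 replicate 4 (7.61, next 1.99). The first 2 are also libraries with Xist above 100 CPM.

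Of the CCR4-NOT genes, 1 library was low for Cnot1, wild-type total RNA at ZT6 replicate 6 (26.4 CPM, next 34.3 CPM). The high ones were Cnot6 in polysomal RNA at ZT6 replicate 3 (104.1, next 58.6), Cnot6l in total RNA at ZT14 replicate 4 (63.6, next 50.2), Cnot7 in total RNA at ZT2 replicate 4 (22.4, next 15.8), and Cnot8 in polysomal RNA at ZT10 replicate 4 (44.5, next 27.2) and in total RNA at ZT6 replicate 2 (29.1, next 21.5).

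For Pan2, polysomal RNA was high at ZT6 replicate 1 (6.80 CPM, next 3.89 CPM) and at ZT22 replicate 6 (6.66, next 2.59), and total RNA was low at ZT10 replicate 1 (5.12, next 7.56). For Pan3, Bmal1-/- was high at ZT10 replicate 4 (33.4, next 22.1) and total RNA at ZT18 replicate 5 (23.5, next 18.2), and polysomal RNA was low at ZT6 replicate 1 (9.76, next 16.3). Parn was high in nuclear RNA at ZT22 replicate 3 (10.7, next 6.80) and in polysomal RNA at ZT14 replicate 2 (19.3, next 13.2).

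Between the genotypes the rhythm itself differed for Noct (edgeR adjusted p = 0.0452) and for Cnot6l (edgeR adjusted p = 0.0215).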

How the results depend on the processing

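Of the values for single genes 870 kept their direction and side of the threshold, 12 came to pass it and 16 no longer did; of those for single sites 459 kept both and 41 no longer passed; 10 gene values and 2 site values changed sign, and 171 counts of calls stayed within 1.5 times and 42 did not. The sign changes were, in Bmal1-/- level, Pan2 (-0.11) and Cnot6l (-0.075) in replicates 4 to 6 and Cnot6 (-0.013), Pan3 (-0.12), Cnot1 (0.054) and Noct at ZT2 (0.0604) in replicates 1 to 3; in nuclear level Noct with filtered sites summed (-0.71); in polysomal level Cnot8 with filtered sites summed (-0.045), Noct in replicates 4 to 6 (0.026) and Parn without polysomal replicate 1 (0.0495); the last site of Noct in polysomes with median-ratio size factors (-0.13); and nuclear usage of the Cnot1 site 95769751 over all called sites (-0.025). Of these 12, the nuclear level of Noct was the one called in both directions.

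With 3 replicates, fewer genes were called: rhythm 1341 and 621 in total (replicates 1 to 3 and 4 to 6), 174 and 237 in nuclear and 115 in polysomal RNA (1 to 3), difference of rhythm in Bmal1-/- 236 and 200, its level 491 at ZT2 and 682 at ZT18 (1 to 3), and 428 at ZT6, 931 at ZT10, 152 at ZT14 and 293 at ZT22 (4 to 6), usage in Bmal1-/- 765 (1 to 3), and site rhythm 1840 and 622 in total, 259 and 274 in nuclear and 48 in polysomal RNA (1 to 3). Without the libraries that stand apart, Bmal1-/- level gave 768 genes at ZT2 and 1774 at ZT14. Rhythm in Bmal1-/- gave 10 genes with a mean of at least 1 count and 0 with DESeq2, in each group of 3 replicates, without the Xist libraries and with filtered sites summed; its site rhythm gave 1 site without the libraries that stand apart. The polysomal difference of rhythm gave 54 genes with a mean of at least 1 count, 9 with DESeq2, 2 in replicates 4 to 6, 7 without the libraries that stand apart and 5 without polysomal replicate 1. Usage gave 3815 nuclear and 3887 polysomal sites in genes of at least 200 counts, and 14661 nuclear sites over all called sites. The causes were not tested, beyond the fewer libraries or the other features tested in each.

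Replicate numbers were not taken as pairs: same-numbered libraries correlated at a mean of 0.35 between total and nuclear RNA (-0.03 to 0.74; 29 of 36 total libraries were closest to their own number), -0.13 between total and polysomal (0 of 36) and 0.08 between the genotypes (13 of 36). With a block for each pair of total and nuclear libraries of 1 time and number, chosen after seeing the data, the nuclear difference of rhythm gave 1 gene (416 with an unadjusted p under 0.05) and none of the 9, and all 9 were called in nuclear level. With a replicate block, rhythm calls were 1505 in polysomal RNA and 0 in Bmal1-/-, site rhythm calls 1410 and 1, and usage calls in Bmal1-/- 2006. The block brought in Cnot1 in rhythm (adjusted p = 0.0239), Cnot6 in Bmal1-/- level (0.0379) and Noct at ZT14 (0.021). Mean counts per library were as low as 21.2 for Noct in Bmal1-/- and 19.2 for Pan2 in polysomal RNA, which limits the precision of their values.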

Other observations

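Within the deadenylase genes, 2 single sites besides those of Noct were rhythmic in wild-type total RNA (edgeR, 4 of 27 sites in all, against 11.5% of all sites). The upstream site of Cnot6l at 96076806 to 96076855 had a log2 peak-to-trough value of 0.51 with a peak at 5.5 h (adjusted p = 0.0173), and the Cnot7 site at 40492606 to 40492678 had 0.94 with a peak at 9.4 h (adjusted p = 0.0499). Neither call held in groups of 3 replicates (adjusted p = 0.176 or more), and that of Cnot7 was also lost with median-ratio size factors (0.0538), without the Xist libraries (0.0876) and without the libraries that stand apart (0.0555).

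Genes that act with the deadenylases were called in both directions between fractions, as were other genes: over all genes 83.8% were called in nuclei (41.6% higher and 42.1% lower) and 76% in polysomes (38.8% higher and 37.2% lower). The lists were not compared with other genes by a test. In nuclei all 7 other CCR4-NOT subunits were called (3 higher, 4 lower), with Cnot3 up by 3.27 on the log2 scale (SE 0.13), and 16 of 17 recruiters were called (9 higher, 7 lower), with Tnrc6a up by 1.42 (SE 0.09) and Btg1 up by 1.15 (SE 0.13). Of 9 poly(A)-binding factors 8 were called (4 higher, 4 lower), with the nuclear protein's gene Pabpn1 up by 2.80 (SE 0.11). In polysomes all 7 CCR4-NOT subunits (3 higher, 4 lower), 15 of 17 recruiters (11 higher, 4 lower) and 8 of 9 poly(A)-binding factors (3 higher, 5 lower) were called, with Btg1 up by 2.24 (SE 0.15) and Larp1 down by 1.41 (SE 0.10). A gene of the decapping list stood far from the rest: Lsm4, a subunit of the LSM ring, averaged 0.18 ± 0.16 CPM in total, 0.18 ± 0.22 CPM in nuclear and 25.8 ± 15.9 CPM in polysomal RNA (SD, n = 36).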
